A study of Dreissena polymorpha with 11 samples.

Results

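RXR, the retinoid X receptor, was among the sequence names on a custom array for Dreissena polymorpha, the zebra mussel, which is a bivalve of fresh water. It was carried by 6 of the 13654 distinct probes other than controls, and all 6 were followed here. The probes were chosen by that name alone and not by their signals. They come in 2 design sets of 3, with the IDs CUST_1_PI415987739, CUST_2_PI415987739 and CUST_3_PI415987739 in the first and CUST_1_PI415987745, CUST_2_PI415987745 and CUST_3_PI415987745 in the second. Probe sequences were not used here, so which stretch of the transcript each probe matches, and whether both sets read the same strand, is not given.

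RXR is a nuclear receptor, a transcription factor that binds DNA and is switched by small lipophilic ligands. In vertebrates 9-cis retinoic acid binds it, and it forms dimers with many other nuclear receptors, among them the receptors for retinoic acid, thyroid hormone and vitamin D. In gastropod molluscs RXR binds organotins such as tributyltin, compounds known for causing imposex, the growth of male organs in females. A search of the sequence names for 43 names of RXR partners, coregulators and retinoid enzymes found 0 of them, so RXR could not be set beside its pathway.

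The series surveyed where genes are expressed in animals that had received no treatment. Total RNA was hybridised to 11 arrays in 1 colour, each array being 1 sample. Larvae at 24 h after fertilisation had 2 arrays, half-body samples 2, male gonad 2, female gonad 1, gill 2 and digestive gland 2. Half-body is the labels' own term, and which organs such a sample holds is not given. The larval RNA was labelled from 200 ng and the adult RNA from 500 ng. Nothing in the labels says whether the 2 arrays of a group came from separate animals or from pools, so each p-value reflects the spread between arrays of a group, and that spread may be technical alone. The labels carry 1 female and 1 male half-body sample, and they contradict each other on the sex of the second gill and second digestive gland sample. A search for 31 marker names of the tissues found 0, so the tissue labels were not checked against markers.

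Larvae replicate 1 stood apart and was left out of all results below, apart from 1 alternative setting. It had 106 probes well above background, against 4356 to 5630 on the other 10 arrays, and its 6 RXR probes read 1.44 to 2.82 intensity units, none of them well above background. There were 3 slides, scanned on a different day each. Slide 1 held the first digestive gland, male gonad and half-body arrays, slide 3 held the first gill array alone, and slide 2 held the other 6 used arrays. Fits with slide as a block therefore spend the slide 3 term on the first gill array, and gill rests on the second gill array alone. Signals below were scaled so that the arrays share 1 75th percentile, computed from the 3075 probes that every one of the 10 detected well above background. Those probes are bright, with 75th percentiles of 18276 to 46912 units, so the factors were not set at RXR brightness. The multiplying factors ran from 0.67 on the second digestive gland array to 1.73 on the second gill array, with 1.70 on the larval array. Tests ran on the log2 scale over the 5928 probes that were well above background on every array of at least 1 group. In these bulk samples fewer cells expressing RXR and less RXR RNA per cell cannot be told apart.

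The RXR probes were dim everywhere. Before scaling, their 60 values on the 10 arrays ran from 3.96 to 111 units, and 32 of the 60 were well above background. None was saturated or marked as an outlier. The signal was 1.02 to 9.80 times the scanner software's own error estimate. Of the 60, 57 were positive and significant by the software's flag. The others, CUST_1_PI415987739 on both gill arrays and CUST_2_PI415987739 on the first, sat at 1.02 times the error. Their background-subtracted values were -9.45, 2.25 and -11.7 units, but their processed values 7.73, 3.96 and 7.82, and they are called floor readings below. All 6 probes were well above background in the female gonad and on the first digestive gland array, and 5 were on the first male gonad array. The second digestive gland array had 4 and the second male gonad array 2. Each gill array had 1, the larval array 2, and the half-body arrays 2 and 3. The lowest signal that counted as well above background itself differed between arrays, from 10.45 units on the second digestive gland array to 29.2 on the first gill array. The number of detected RXR probes is therefore no measure of RXR level across arrays. All 6 probes passed the filter for testing, CUST_2_PI415987739 through the single female gonad array alone.

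CUST_3_PI415987745 was the most often detected RXR probe, well above background on 9 of 10 arrays. Its scaled signal was 85.4 on the larval array, 25.3 and 33.3 in half-body samples, 33.5 and 30.3 in male gonads and 65.4 in the female gonad. In gills it was 23.3 and 109, and in digestive glands 57.1 and 74.5. The larval, female gonad and digestive gland arrays all lay above the half-body and male gonad arrays. The gill arrays were its lowest and its highest, 2.23 apart on the log2 scale, and the low one was its only array not well above background.

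CUST_2_PI415987745 was well above background on 8 of 10 arrays. It read 31.0 on the larval array, 15.1 and 18.4 in half-body samples, 31.3 and 12.3 in male gonads, 30.4 in the female gonad, 40.5 and 23.7 in gills, and 36.2 and 13.1 in digestive glands. The arrays of a tissue were as far apart as the tissues were, with both male gonad and digestive gland pairs differing by more than 1 log2 unit. The third probe of that set, CUST_1_PI415987745, was detected on 4 arrays. It read 23.9 on the larval array, 6.18 and 9.07 in half-body samples, 16.9 and 5.97 in male gonads, 14.9 in the female gonad, 10.6 and 18.2 in gills, and 17.5 and 9.86 in digestive glands. Its larval reading was the highest of the 10 after scaling, but not well above background on that array. Before scaling it was 14.0 units, against 15.9 on the first male gonad array.

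In the first design set, most readings of the probes numbered 2 and 3 were not well above background. CUST_2_PI415987739 read 31.2 on the larval array, 11.1 and 8.27 in half-body samples, 19.6 and 4.68 in male gonads, 23.4 in the female gonad, 6.34 and 16.4 in gills, and 20.5 and 9.23 in digestive glands. CUST_3_PI415987739 read 18.9 on the larval array, 11.4 and 7.77 in half-body samples, 10.97 and 6.96 in male gonads, 23.0 in the female gonad, 16.6 and 14.6 in gills, and 21.8 and 12.5 in digestive glands. Each of these 2 probes was well above background on 3 arrays, and the first gill value of CUST_2_PI415987739 was a floor reading. For CUST_3_PI415987739 the female gonad array was the highest of the 10 and the second male gonad array the lowest.

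CUST_1_PI415987739 had a different pattern. It read 73.7 and 39.8 in half-body samples, both well above background, and 30.5 on the larval array, where it was not. In male gonads it read 19.3 and 6.84, in the female gonad 20.1, in gills 6.26 and 6.84, and in digestive glands 19.8 and 8.59. Both half-body arrays lay above every other array, and both gill values were floor readings, not well above background.

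Ordering the 6 groups by their mean after scaling put larvae 1st or 2nd for all 6 probes and the female gonad 1st to 3rd. Half-body samples came last for 4 probes, 5th for CUST_3_PI415987739 and 1st for CUST_1_PI415987739. Male gonad came 5th for 5 probes and 6th for CUST_3_PI415987739. These positions are close together relative to the replicate spread. Of the 30 steps between neighbouring groups in the 6 orders, 3 were larger than the probe's pooled SD within pairs of arrays. They were half-body samples above larvae and male gonad above gill for CUST_1_PI415987739, and gill above half-body samples for CUST_3_PI415987739. The gill mean of CUST_1_PI415987739 is made of floor readings.

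Across all groups no RXR probe passed the F-test. The limma adjusted p of the 6 probes ran between 0.233 for CUST_1_PI415987739 and 0.872 for CUST_2_PI415987745, and 0 of 6 passed 0.05 with or without adjustment. Of all 5908 probes in that test, 6.21% passed with adjustment and 22.3% without. The SD of the 6 group means exceeded the pooled SD within pairs for 2 RXR probes, at 1.09 against 0.75 for CUST_1_PI415987739 and 0.56 against 0.42 for CUST_3_PI415987739, in log2 units. Over all tested probes the medians of these quantities were 0.90 and 0.71. Over the 1145 other tested probes with a mean in the RXR range they were 1.17 and 1.20.

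Half-body samples were set against the dissected tissues, the mean of gill, digestive gland and both gonads. CUST_1_PI415987739 had a fitted log2 difference of 2.19 ± 0.58 (SE, 2 arrays against 7) with a 95% interval of 0.77 to 3.62. That size rests in part on readings near background, since 4 of the 7 dissected tissue arrays were not well above it. A bound was added after the values were seen. It set each of those 4 at its array's lowest signal well above background, or at its own reading where that was higher. Half-body samples were then 3.25-fold higher (a log2 difference of 1.70, with no test). That lowest signal is taken over all probes and is not this probe's own limit. On the second digestive gland array it was 10.45 units, while this probe read 12.8 without being well above background. CUST_1_PI415987739 did not pass the threshold over all probes, with a limma unadjusted p of 0.00976 and an adjusted p of 0.292. It ranked 197th of 5925 by p. None of the 6 RXR probes was called, against 0.473% of all probes, and 1 of 6 had an unadjusted p under 0.05, against 10.4%. Both half-body arrays lay above all 7 dissected tissue arrays for CUST_1_PI415987739, as they did for 3.59% of tested probes. They lay below all 7 for 0 of 6 RXR probes, against 4.25%.

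The other 5 RXR probes were on the opposite side. Their log2 differences between half-body samples and dissected tissues lay between -0.82 for CUST_3_PI415987745 and -0.48 for CUST_2_PI415987739, and every interval included 0. The interval of CUST_3_PI415987745, for example, was -2.34 to 0.70, which holds both equal levels and a much lower level in half-body samples. For these 5 probes the half-body and dissected tissue arrays overlapped. The 6 probes of 1 name thus gave differences of both signs in the same RNA, and the interval of CUST_1_PI415987739 was the only one of the 6 that left out 0. With slide as a block that interval was 1.09 to 2.66, and 2 of the negative differences also had intervals below 0. These were -1.52 to -0.13 for CUST_3_PI415987739 and -1.83 to -0.26 for CUST_3_PI415987745, with limma adjusted p of 0.261 and 0.238.

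Within slides CUST_1_PI415987739 kept its direction. On slide 1 its log2 difference between the half-body array and the 2 dissected tissue arrays was 1.91, and on slide 2 it was 2.07 against 4 arrays, with the half-body array above each of them. On the comparison with gill alone, picked out after the values were seen, half-body samples were 2.25-fold higher by a bound of the same kind. That bound sets each dim gill array at the lowest signal that was well above background on it, or at its own reading where that was higher. The limma test was made on the values as read, not on the bound. It gave a log2 difference of 3.05, with an interval of 1.29 to 4.81 and a limma adjusted p of 0.0945. In that comparison 2.77% of all probes were called. Both gill values in it were floor readings. The size depended on background handling: with the normexp correction and its offset of 50 units, which compresses dim signals, the log2 difference from dissected tissues was 0.45. On the values of the authors' deposited table it was 1.42.

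CUST_1_PI415987739 has a single spot, at row 180 in column 1, the edge of the array. Among the 31 other tested probes within 5 rows and columns of it, 7, or 22.6%, were as high in half-body samples as it was, against 7.09% of all tested probes. Among the 77 other tested probes with a spot in column 1, 3 were as high. CUST_2_PI415987739 lies in the same corner, at row 173 in column 2, where 5 of 29 neighbours were that high, and its own half-body difference was -0.48. The local background at the spot of CUST_1_PI415987739 was 1 to 2.5 units above the array's median on the half-body arrays. On the dissected tissue arrays it was 3 below to 1 above it. Probes of RXR-like brightness that were spotted in duplicate differed between their spots by a median of 0.19 and 0.29 log2 units on the half-body arrays, with 90th percentiles of 1.94 and 2.49. That brightness range starts at 3.96 units, below the additive error estimates of 5.18 and 4.29 there. Pairs at the floor can thus be among the 731 and 668 pairs counted. On the digestive gland and gonad arrays, with 200 to 250 pairs, the medians were 0.42 to 0.60. The part of the spot's position in the half-body difference was not tested.

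Larvae were set against the same dissected tissues to compare an early stage with adult organs. All 6 RXR probes had positive log2 differences, between 0.30 for CUST_2_PI415987745 and 1.37 for CUST_1_PI415987739, with a median of 0.82. The median over all tested probes was 0.31, and 58.4% of them were positive. None of the 6 passed the test, against 9.90% of all probes, nor did any without adjustment, against 20.8%. The lowest limma adjusted p among them was 0.387. Each interval included 0, and that of CUST_1_PI415987739 was -0.53 to 3.26. With slide as a block this one interval was 0.63 to 2.67, with a limma adjusted p of 0.0881. After scaling, the larval array lay above all 7 dissected tissue arrays for 3 RXR probes, as for 26.3% of all probes. It lay below them for 0 of 6, against 13.7%. The 3 probes were CUST_1_PI415987739, CUST_2_PI415987739 and CUST_1_PI415987745, and none of the 3 was well above background on the larval array. Before scaling none of the 3 separated, since the female gonad array read higher than the larval array for each. In the order named, it read 20.98 against 17.95 units, 24.41 against 18.36 and 15.49 against 14.04. The separation therefore depended on the larval scaling factor of 1.70, which was not set at RXR brightness.

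The larval values rest on 1 array, whose spread was assumed to be that of the other groups, and stage cannot be told apart from the smaller RNA input. Within slide 2, after scaling, the larval array exceeded the mean of the 4 dissected tissue arrays for all 6 probes. The excess ran from 0.43 for CUST_3_PI415987745 to 1.69 for CUST_1_PI415987739 on the log2 scale. The 2 probes that were well above background on the larval array, CUST_3_PI415987745 and CUST_2_PI415987745, differed from dissected tissues by 0.74 and 0.30. With quantile normalization CUST_2_PI415987745 and CUST_3_PI415987739 turned negative, at -0.20 and -0.33.

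Gonads were sampled from both sexes, and male was set against female. All 6 RXR probes had lower means in male gonads, with fitted log2 differences between -1.39 for CUST_3_PI415987739 and -0.57 for CUST_1_PI415987745. Their median was -0.92, against -0.06 over all tested probes. Of the RXR probes 0 of 6 were called, against 0.00% of all probes, and 0 of 6 had an unadjusted p under 0.05, against 4.83%. CUST_3_PI415987739 came nearest, with an interval of -2.86 to 0.07 and a limma adjusted p of 0.972. Not being well above background on either male gonad array, it was 2.38-fold lower there by the bound set as above. That figure rests on 1 female gonad array, and the bound is not the probe's own limit. Both male gonad arrays lay below the single female gonad array for 4 of 6 RXR probes, as for 35.4% of all probes, and above it for 0 of 6, against 23.2%. CUST_2_PI415987739, 1 of the 4, passed the filter through the female gonad array alone. Its lower male values are therefore not independent of the filter and lend no support.

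The second male gonad array was the lower of the pair for 6 of 6 RXR probes, by a median of 1.42 log2 units, while 38.6% of all tested probes were lower there. Scaling entered that size, with factors of 1.06 on the first array and 0.70 on the second. Before scaling the second array was the lower for 5 of 6. Without it, 4 of the 6 differences from the female gonad were still negative and their median was -0.16. CUST_3_PI415987739 and CUST_3_PI415987745 then differed by -1.07 and -0.97, CUST_2_PI415987739 by -0.25 and CUST_1_PI415987739 by -0.06, while CUST_1_PI415987745 and CUST_2_PI415987745 were positive at 0.18 and 0.04. On slide 2, which held the second male gonad and the female gonad, the 2 probes well above background on both arrays were CUST_3_PI415987745 and CUST_2_PI415987745, with log2 differences of -1.11 and -1.31. With slide as a block the intervals of CUST_1_PI415987739 and CUST_3_PI415987739 left out 0, at -2.59 to -0.22 and -2.78 to -0.68, both with a limma adjusted p of 0.356.

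A gap of the same direction separated the digestive gland arrays. The first array read higher than the second for 5 of 6 RXR probes, with a median of 0.99 log2 units, against 46.3% of all probes. Part of that size came from scaling, with factors of 1.15 on the first array and 0.67 on the second. Before scaling the first array was also higher for 5 of 6. Those 5 gaps lay between 18.8 against 18.5 units for CUST_3_PI415987739 and 31.4 against 19.5 for CUST_2_PI415987745. Of the other pairs, the first array was higher for 3 of 6 RXR probes in half-body samples and 2 of 6 in gills. In male gonad, digestive gland and half-body samples the first array lay on slide 1 and the second on slide 2, and in half-body samples the labelled sex went with the slide. In digestive gland it did by 1 of the 2 labels that contradict each other.

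No RXR probe separated gill, digestive gland and gonads by the test. Gill minus digestive gland ran between -0.99 for CUST_1_PI415987739, with an interval of -2.75 to 0.77, and 0.51 for CUST_2_PI415987745, with an interval of -1.27 to 2.29. None of the 6 was called at either level of p, against 2.58% of all probes with adjustment and 17.2% without. On slide 2 these 2 probes differed by -0.33 and 0.85. Both gill arrays lay below both digestive gland arrays for CUST_1_PI415987739 alone among the 6, as for 18.8% of all probes. They lay above both for 0 of 6, against 37.5%. The gill values of CUST_1_PI415987739 were floor readings, here and in the comparison of gonads with gill.

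Gonads, the mean of male and female, minus gill ran between -0.34 for CUST_2_PI415987745, with an interval of -2.01 to 1.33, and 1.22 for CUST_1_PI415987739, with an interval of -0.43 to 2.86. On slide 2 these differences were -0.29 and 0.78. CUST_3_PI415987745 had a difference of -0.15, with an interval of -1.90 to 1.61. With slide as a block, where gill rests on its second array alone, the difference of CUST_3_PI415987745 was -1.21. It was -1.26 without the first gill array and 0.97 without the second. Again 0 of 6 probes were called at either level, against 3.31% and 17.2% of all probes. The gonad arrays overlapped the gill arrays for all 6, while they lay above them for 16.0% of all probes and below for 27.8%. Gonads minus digestive gland ran between -0.52 for CUST_3_PI415987745, with an interval of -2.27 to 1.24, and 0.22 for CUST_1_PI415987739, with an interval of -1.42 to 1.87. On slide 1, where the male gonad stood for the gonads, these were -0.77 and -0.03, and on slide 2 they were -0.74 and 0.45. None of the 6 was called at either level, nor was any of the 5925 probes with adjustment (0.00%), while 2.48% passed without it. The gonad and digestive gland arrays overlapped for all 6, while the gonads lay above for 5.06% of all probes and below for 4.77%. These comparisons share arrays with each other. Their intervals reached past 2 log2 units for some probes, so equal RXR levels in these organs were not shown.

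How alike the 6 probes were was described by their Pearson correlation over the 10 arrays, which share tissue, slide and scaling. The 15 pairs had a median r of 0.56, between -0.19 and 0.85. CUST_1_PI415987739 stood apart, with a median r of -0.03 against the other 5 (range -0.19 to 0.38). Without it, the remaining 10 pairs had a median of 0.69. Other sequences with at least 2 tested probes had a median of 0.78 over 1620 sequences, and 0.85 over the 260 sequences whose probes lay in the RXR brightness range. The median was 0.53 over the 6 pairs within a design set and 0.56 over the 9 pairs between sets.

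The probes whose pattern was most like RXR were sought for CUST_3_PI415987745, the RXR probe with the highest mean signal, among 5845 tested probes of other sequences. CUST_8032_PI415929191 and CUST_1792_PI415929191 had the highest Pearson r over the 10 arrays, 0.95 for each, with Spearman's rho of 0.87 and 0.92. CUST_3556_PI415929191 and CUST_5380_PI415929188 had the lowest, with r of -0.96 and -0.89 and rho of -0.94 and -0.82. The files give no gene name for these 4 sequences, and values this far out are picked as the extremes of 5845. The lowest and highest arrays of CUST_3_PI415987745 are both gill, so r over the 10 arrays also follows that gap between replicates. Over the 6 group means r was 0.94 for CUST_8032_PI415929191 and 0.90 for CUST_1792_PI415929191. CUST_1792_PI415929191 was well above background on 6 of the 10 arrays.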

How the data were processed

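Agilent Feature Extraction 10.5.1.1 (protocol GE1_105_Dec08) wrote the scanner files, per the file headers. The processed intensity is the deposited spot brightness after the software subtracted background and removed spatial trends, with no scaling between arrays, per the file headers. At the floor readings named above it stood above the background-subtracted value. The authors' deposited table of log2 values, whose scaling and centring are not given in the sources used here, served only as an alternative. Its column medians ran from 3.05 to 4.33, and the column of gill replicate 1 had r of 0.58 with the scanner values, against 0.984 to 0.991 for the other 9 used columns.

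Control and outlier spots were dropped, spots of a probe averaged, and log2 intensity was taken minus each array's 75th percentile. The scaled signal is that value put back on a linear scale. The R 4.3.3 package limma 3.58.1 fitted a group-means model over 10 arrays, with 4 residual and 1.70 prior degrees of freedom, and tested in 6 contrasts and an F-test, with Benjamini-Hochberg adjustment over all probes tested and a threshold of 0.05. Missing values left 5908 to 5928 probes per test. Called means past that threshold. The same fit gave the half-body and gill pair, and no tool other than limma was used for tests. The scripts were checked on simulated data. Intervals cover 95%, and the number of arrays limits precision.

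All RXR probes were named, and the most similar probes were the 2 highest and 2 lowest by Pearson r with the brightest RXR probe, 1 per sequence. The members and lists were chosen with earlier results of these data known. Looked up among 51549 RefSeq genes (assembly UMN_Dpol_1.0), 0 of 3541 sequence names were found. Alternatives changed the scaling, background correction (normexp on the median spot signal, in place of the planned mean signal), filter, variance model, slide, sex and replicate terms, values and arrays.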

Additional observations from a re-analysis of the deposited data

How the results depend on the processing

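No RXR probe was called under any alternative: all 171 counts were 0, and the lowest limma adjusted p was 0.0881, in the larval contrast. The adjusted p of the F-test ran from 0.106 to 0.9999 over 138 values. The half-body difference kept its sign for all 6 probes in all 150 values, some of which could not change. For CUST_1_PI415987739 it ran from 0.38 to 2.64 (adjusted p = 0.151 to 0.9999), and from 1.75 without half-body replicate 1 to 2.64 without replicate 2. Of 888 differences 79 changed sign, 24, 23 and 24 of them in gill minus digestive gland, gonads minus digestive gland and gonads minus gill, 5 in larvae and 3 between the gonads. Both totals, 150 and 888, count settings that could not change a difference. These altered only the adjustment, threshold, filter, variance model or groups fitted, or left out an array of a group outside the contrast. Of 36 intervals 1 left out 0, and 7 did with slide as a block. The cause was not tested.

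The deposited table gave CUST_1_PI415987739 1.39 in gill minus digestive gland and -1.01 in gonads minus gill, and CUST_2_PI415987745 -2.45 and 2.65. Normexp with the 75th percentile gave CUST_1_PI415987739 0.40 and -0.28. Normexp with quantile normalization gave CUST_2_PI415987745 -0.28 and 0.21, and quantile normalization alone 0.11 in gonads minus gill. For larvae, normexp with quantile normalization gave CUST_1_PI415987739 -0.045, CUST_2_PI415987745 -0.28 and CUST_3_PI415987739 -0.22, and quantile normalization alone gave the last 2 -0.20 and -0.33. In gonads minus gill CUST_3_PI415987745 was 2.32 on the deposited table, 0.034 with median scaling, 0.059 with the replicate block and -1.26 to 0.97 leaving out 1 array. A sex term gave CUST_2_PI415987745 0.018 in male minus female gonad. Leaving out 1 array at a time, CUST_1_PI415987739 ran from -0.38 to 0.82 in gonads minus digestive gland. CUST_1_PI415987745 ran from -1.32 to 0.18 in male minus female gonad, and CUST_2_PI415987745 from -1.31 to 0.041 there, from -0.22 to 1.24 in gill minus digestive gland and from -0.73 to 0.045 in gonads minus gill.

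Over all probes, the F-test called 367, 0 with slide as a block and 0 without either gill array. Other settings ran from 0 to 530 for the F-test, 0 to 144 for gill minus digestive gland (153 as reported), 0 to 161 for gonads minus gill (196), 0 to 54 for half-body samples (28), 0 to 721 for larvae (585) and 0 to 16 for male minus female gonad (0). Leaving out 1 array gave 0 to 543, 54 to 153, 75 to 196, 0 to 28, 487 to 558 and 0 to 4. Gonads minus digestive gland stayed at 0. Scaling to the 75th percentile over all probes shifted every probe by -0.33 in the half-body contrast and -0.41 in male minus female gonad. Replicate numbers did not pair the samples: r of their deviations was 0.73 for male gonad with digestive gland but 0.01 for gill with either. With them as a replicate block 0 of 6 RXR probes were called, the half-body difference of CUST_1_PI415987739 was 1.87, and the F-test called 63 probes. Requiring detection on all 10 arrays left no RXR probe to test. Low signal over background limits every RXR value.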
